A study of Mus musculus with 8 samples.

Results

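Lipoprotein lipase and 9 other genes of triglyceride handling were followed in mouse hearts with a FASTKD1 transgene (the protein binds RNA in mitochondria): Lpl with Gpihbp1 and Angptl4, the intracellular hydrolase genes Ces1d, Pnpla2, Lipe and Mgll, the droplet coat gene Plin5, and the acyltransferase genes Dgat1 and Dgat2. They were chosen by name, and all 10 were among the 13227 genes listed in the count files and among the 13226 tested. RNA sequencing covered 8 hearts of FVB/N mice, an inbred strain, all labelled male and adult at 3 months. FASTKD1 transgenic hearts carry the letters A, B, C and E, and non-transgenic ones the letters A, B, D and E, with 1 library per heart. The labels do not say how the animals were related or housed, and p-values measure the spread between these hearts. The series title places the overexpression in the heart specifically; the promoter, the number of transgenic lines and any treatment are not given in the sources used here.

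Triglyceride reaches the heart in circulating lipoproteins. Lipoprotein lipase, made by cardiomyocytes and carried to the capillary surface by the endothelial protein GPIHBP1, releases fatty acids from it, and ANGPTL4 inhibits the enzyme. Inside the cell, fatty acids that are not burnt are joined to glycerol by the DGAT enzymes and kept in lipid droplets. Adipose triglyceride lipase (PNPLA2), hormone-sensitive lipase (LIPE) and monoglyceride lipase (MGLL) release them again in sequence, while perilipin 5 coats droplets in oxidative tissue. Many of these genes are known targets of PPAR transcription factors, which fatty acids activate.

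Total counts per library were 44584359 to 55769859 in transgenic and 45802079 to 50830215 in non-transgenic hearts. Fastkd1 stood at 8845 to 11516 CPM (counts scaled to a common library size, with TMM factors) in transgenic hearts, against 26.3 (A), 30.2 (B), 192 (D) and 33.8 (E) CPM in non-transgenic hearts. Heart D, labelled male, had 0 counts over 4 Y-linked genes (Uty, Kdm5d, Eif2s3y and Ddx3y), where the other hearts had 10372 to 15914. Heart D below means the library labelled non-transgenic D. For several results that rest on it, values without it are also given, while correlations always include it. Transgenic heart A had the highest summed level of 7 atrial markers, 3297 CPM, against 41.5 to 289 CPM in transgenic hearts B, C and E and 39.4 to 645 CPM in non-transgenic hearts. Heart identity was otherwise clear, with Myh6, the main myosin of the adult mouse heart, at 20841 CPM or more in every library.

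All 10 genes had a lower fitted level in transgenic hearts, though Pnpla2 changed sign with library sizes alone as scaling and without non-transgenic heart A, and 2 of the 10 passed the test. Lpl and Ces1d fell (edgeR adjusted p under 0.05), 0 rose and 8 did not pass; over all genes, 1.25% were called, 0.242% lower and 1.01% higher. At an unadjusted p under 0.05 there were 4 lower members, with Gpihbp1 and Dgat2 added, and 0 higher ones, against 5.38% of all genes lower and 5.37% higher at that threshold. DESeq2 called 0 members higher and Lpl and Ces1d lower, against 1.88% of all genes higher and 1.20% lower, and limma-voom called the same 2 members. The median log2 fold change of the 10 genes was -0.31, beside 0.01 over all 13226 genes. It was -0.19 without non-transgenic heart A and -0.44 without heart D. The levels in CPM did not overlap between the groups for Lpl, Gpihbp1 and Ces1d, each lower in transgenic hearts. For Gpihbp1 this needed the TMM factors. Over all genes 7.38% did not overlap in CPM, 2.80% lower and 4.58% higher.

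**Figure D1:**
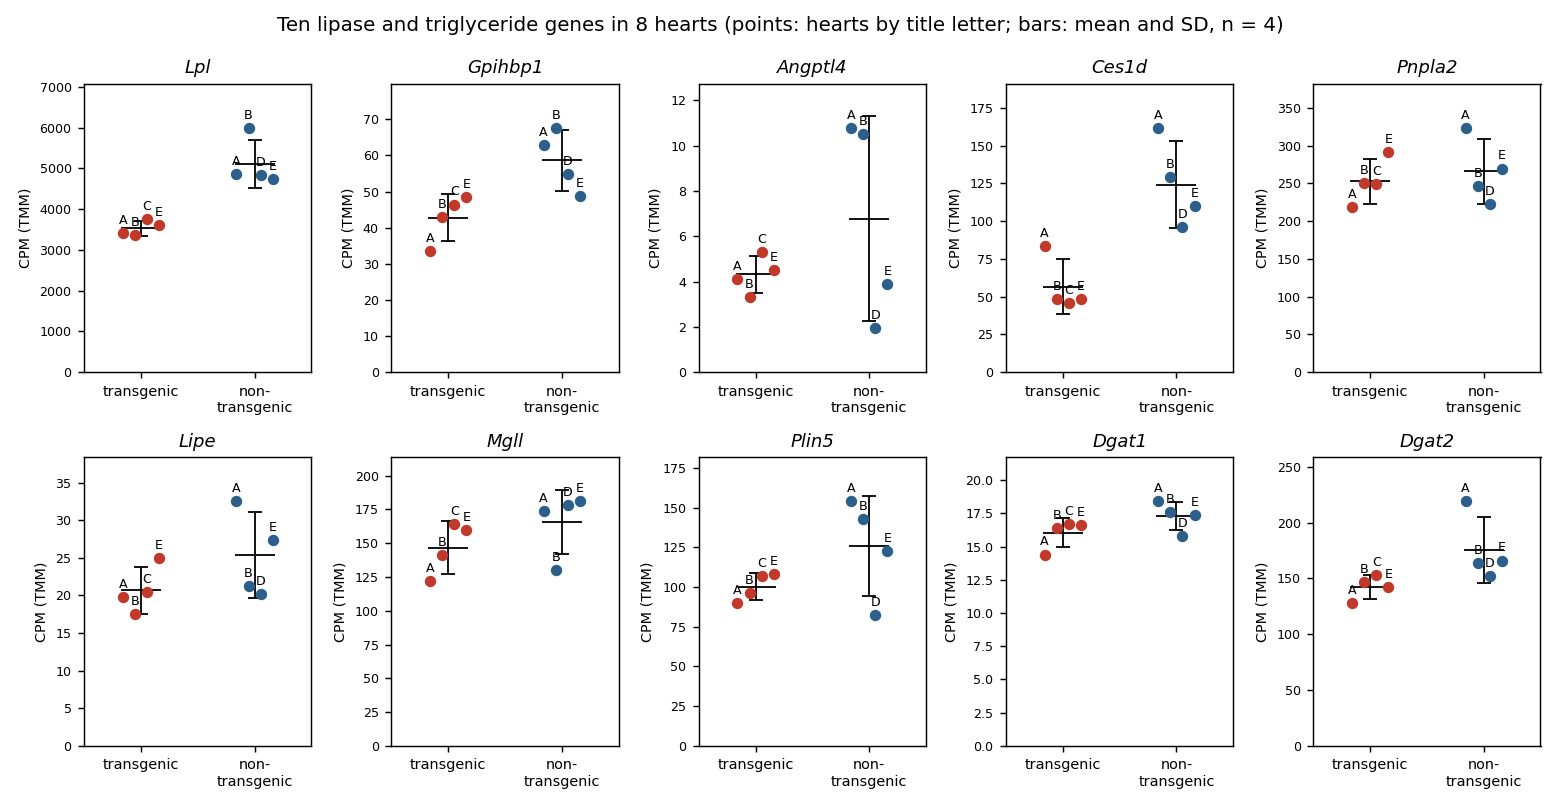
Level of each of the 10 genes in CPM (vertical axis, from 0) in the 4 transgenic and 4 non-transgenic hearts; points are hearts with their title letters, and black marks are mean and SD. Lpl, Gpihbp1 and Ces1d show no overlap between groups, and for Angptl4 and Plin5 the non-transgenic hearts spread beyond the transgenic ones on both sides.

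Lpl (ENSMUSG00000015568; GRCm38 chromosome 8, 68880491 to 68907448, plus strand) had the highest level per kilobase of exon of the 10 genes in both groups. It was at 3404 (A), 3363 (B), 3749.9 (C) and 3614 (E) CPM in transgenic hearts, against 4863 (A), 5999 (B), 4836 (D) and 4737 (E) CPM in non-transgenic hearts. Every transgenic heart lay below every non-transgenic heart, and the transgenic hearts lay close together. The means were 3533 ± 182 CPM (transgenic) and 5109 ± 596 CPM (non-transgenic; SD, n = 4 per group), a ratio of 0.692. The fit gave a log2 fold change of -0.53 (SE 0.10; edgeR, adjusted p = 0.0393), and a two-sided exact permutation test on log2 CPM reached p = 0.0286, the smallest this design allows. The log2 fold change stayed between -0.58 and -0.45 with any 1 heart left out, while the call did not always hold. The edgeR adjusted p was 0.118, 0.180, 0.108 and 0.117 without transgenic heart A, B, C or E. It was 0.0907 and 0.0593 without non-transgenic heart A or E, and 0.0242 and 0.0388 without B or D.

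The cardiomyocyte markers moved in the same direction as Lpl. The summed level of 12 such markers, which code for contractile and related proteins, was 71933 to 76529 CPM in transgenic and 88520.1 to 103923 CPM in non-transgenic hearts, without overlap (exact permutation p = 0.0286, adjusted over 7 marker lists 0.200). Of the 12, 0 passed in edgeR, 5 were called lower by DESeq2 and 0 by limma-voom, 10 were lower and 0 higher at an unadjusted p under 0.05 (5.38% and 5.37% of all genes), and the median log2 fold change was -0.32. Lpl as a share of that sum was 4.73%, 4.39%, 4.94% and 4.78% in transgenic hearts A, B, C and E, against 4.70%, 5.77%, 5.46% and 5.30% in the non-transgenic hearts in the order A, B, D, E. On this scale non-transgenic heart A lay among the transgenic hearts, so the groups overlapped. In bulk heart RNA, fewer cells of a type and less RNA per cell cannot be told apart, and the part of the markers in the fall of Lpl was not tested.

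Gpihbp1 (ENSMUSG00000022579; chromosome 15, 75596628 to 75599481, plus strand), the endothelial carrier of the lipase, had 33.5 (A), 42.9 (B), 46.4 (C) and 48.4 (E) CPM in transgenic hearts. The non-transgenic hearts had 63.0 (A), 67.7 (B), 54.9 (D) and 48.8 (E) CPM. The groups did not overlap in CPM, though transgenic heart E and non-transgenic heart E stood only 48.4 against 48.8 CPM apart. As a share of the library's counts these 2 hearts were at 0.00505% and 0.00504%, so the groups overlapped. The means were 42.8 ± 6.61 and 58.6 ± 8.40 CPM (transgenic and non-transgenic; SD, n = 4 each), and the log2 fold change of -0.45 (SE 0.14) did not pass (edgeR adjusted p = 0.233). The summed level of 14 endothelial markers was 1281 to 1349.9 CPM in transgenic and 1209 to 1479 CPM in non-transgenic hearts, with overlapping groups. Gpihbp1 as a share of that sum was 2.61% to 3.67% in transgenic hearts and 3.71% to 5.60% in non-transgenic hearts. The count ratio of Lpl to Gpihbp1, which needs no scaling between libraries, was 83.9 ± 12.1 in transgenic and 87.8 ± 8.16 in non-transgenic hearts, with overlap.

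Angptl4 (ENSMUSG00000002289; chromosome 17, 33773750 to 33781830, minus strand), the lipase inhibitor, was the member with the lowest level per kilobase of exon and, in non-transgenic hearts, the widest spread. It had 4.13 (A), 3.30 (B), 5.31 (C) and 4.51 (E) CPM in transgenic hearts, against 10.8 (A), 10.5 (B), 1.94 (D) and 3.88 (E) CPM in non-transgenic hearts. Non-transgenic hearts A and B lay above all transgenic hearts, D lay below all of them, and E lay among them. The spread was 19.4% of the mean in transgenic and 67.0% in non-transgenic hearts. The fit gave a log2 fold change of -0.64 (SE 0.46; edgeR, adjusted p = 0.707), and with 1 heart left out it ran from -0.97 without heart D (adjusted p = 0.216) to -0.32 and -0.35 without non-transgenic heart A or B (adjusted p = 0.886 and 0.844). It was -0.27 in limma-voom. A p that misses the threshold with an SE of this size does not show that the groups were alike.

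The other genes on the lipoprotein side were taken from a list of 24 genes for lipase maturation, cofactors, inhibitors and lipoprotein receptors, of which 17 were tested. The list includes Lpl, Gpihbp1 and Angptl4. Lpl was its only called gene, 0 rose and 16 did not pass, beside 0.242% of all genes called lower and 1.01% higher. The median log2 fold change was -0.09, and -0.07 over the 14 tested genes that are not among the 10 members. Sel1l, which codes for an adaptor of endoplasmic reticulum degradation that lipase maturation needs, had the next smallest p. It was at 97.7, 108, 107 and 106 CPM in transgenic hearts and 79.3, 66.5, 86.7 and 83.5 CPM in non-transgenic hearts, without overlap. Its log2 fold change of 0.41 (SE 0.10) did not pass in edgeR (adjusted p = 0.103) and did in DESeq2 (adjusted p = 0.00575). The VLDL receptor gene Vldlr and the phospholipid transfer protein gene Pltp were at -0.22 and -0.24 in log2 fold change (adjusted p by edgeR = 0.547 and 0.652).

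Ces1d (ENSMUSG00000056973; chromosome 8, 93166068 to 93197838, minus strand), a carboxylesterase also known as triacylglycerol hydrolase, whose reads near-identical Ces1 paralogs could share, showed the largest fall of the members. It had 83.6 (A), 48.3 (B), 45.8 (C) and 48.6 (E) CPM in transgenic hearts, against 162 (A), 129 (B), 95.9 (D) and 109.8 (E) CPM in non-transgenic hearts. Transgenic heart A stood apart from the other transgenic hearts and was still below every non-transgenic heart. The means were 56.6 ± 18.0 CPM (transgenic) and 124 ± 28.4 CPM (non-transgenic; SD, n = 4 per group), with a log2 fold change of -1.13 (SE 0.22, edgeR adjusted p = 0.0387). Without transgenic heart A it was -1.38 (adjusted p = 0.00252), and without both transgenic heart A and non-transgenic heart D -1.49 (adjusted p = 0.00101). The call was lost without transgenic heart B, C or E (edgeR adjusted p = 0.158, 0.124 and 0.121) and without non-transgenic heart A, B or E (0.125, 0.0820 and 0.0639). It held without non-transgenic heart D (0.0289).

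Ces1d is abundant in adipose tissue, so adipocyte markers were set beside it. Of 12 such markers, 9 were tested; 0 passed in either direction, also at an unadjusted p under 0.05, and Retn, Adrb3 and Ucp1 were not analysed here. DESeq2 and limma-voom also called 0 of the 9. All 9 had a log2 fold change below 0, with a median of -0.45. Their summed level was 104 (A), 70.2 (B), 59.2 (C) and 56.8 (E) CPM in transgenic hearts, against 177 (A), 105 (B), 84.9 (D) and 54.8 (E) CPM in non-transgenic hearts, with overlap. Ces1d had the highest correlation with that sum of the 10 members, r = 0.72 over 8 hearts that share libraries and scaling. Adiponectin (Adipoq) was at 4.25 (A), 1.78 (B), 0.660 (C) and 0.870 (E) CPM in transgenic hearts, against 9.72 (A), 1.31 (B), 3.02 (D) and 0.190 (E) CPM in non-transgenic hearts. In each group, heart A had both the highest Adipoq and the highest Ces1d. The markers did not all share this order. Among non-transgenic hearts, Lep, Plin1, Cidec, Cfd and Car3 also peaked in heart A, while Cidea, Pparg and Thrsp peaked in B. Among transgenic hearts, Cidea peaked in E, Pparg in C and the other tested markers in A. Non-transgenic heart D was above hearts B and E of its group in Adipoq, yet had the lowest Ces1d of that group. The part of adipocyte RNA in the fall of Ces1d was not tested.

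**Figure D2:**
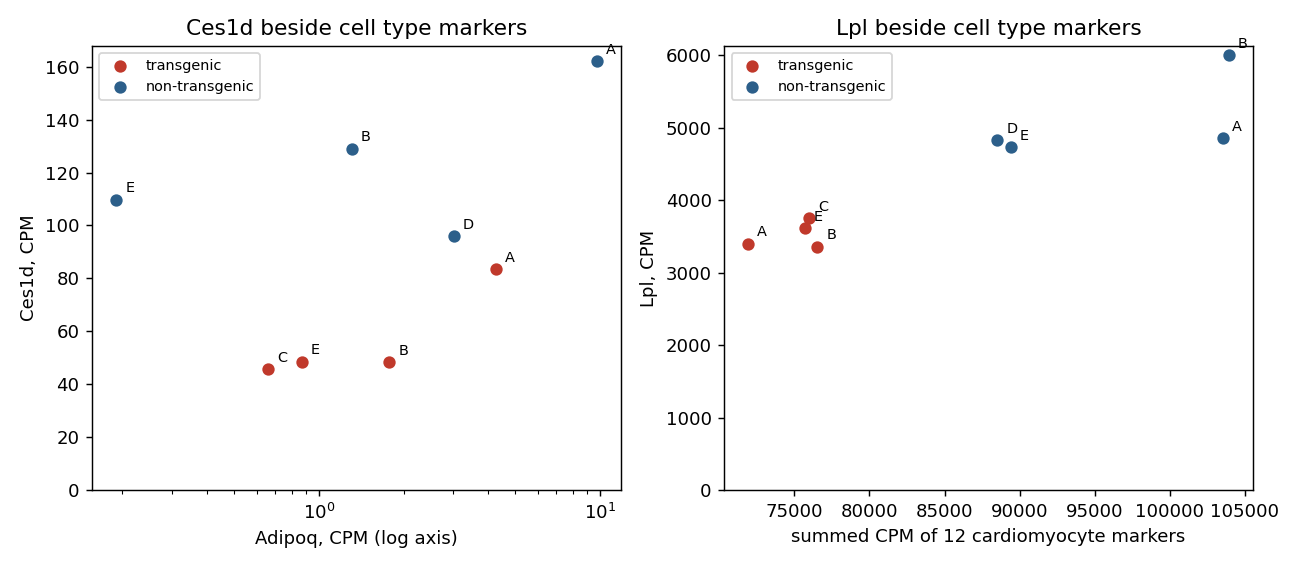
Left: Ces1d (CPM) against Adipoq (CPM, log axis) in 8 hearts; right: Lpl (CPM) against the summed CPM of 12 cardiomyocyte markers (axis not from 0). Letters are title letters. On the left heart A is highest on both axes within each group, while non-transgenic heart D is above B and E in Adipoq and lowest in Ces1d within its group. On the right both measures are lower in all 4 transgenic hearts.

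Pnpla2 (ENSMUSG00000025509; chromosome 7, 141455198 to 141460743, plus strand), the lipase of the first step, showed a difference within the hearts' spread. It had 219 (A), 250.3 (B), 249.6 (C) and 292 (E) CPM in transgenic hearts and 324 (A), 247 (B), 223 (D) and 269.8 (E) CPM in non-transgenic hearts, with full overlap. The fit gave a log2 fold change of -0.07 (SE 0.13; edgeR, adjusted p = 0.903); its sign turned to 0.01 with library sizes alone as scaling and to 0.04 without non-transgenic heart A. The count ratio of Pnpla2 to Ces1d was 2.62, 5.18, 5.45 and 6.02 in transgenic hearts A, B, C and E, against 2.01, 1.92, 2.32 and 2.46 in the non-transgenic hearts in the order A, B, D, E. This ratio was higher in each transgenic heart, narrowly so in heart A.

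Lipe (ENSMUSG00000003123; chromosome 7, 25379527 to 25398710, minus strand), which cleaves diacylglycerol, was low, at 17.5 to 25 CPM in transgenic and 20.2 to 32.5 CPM in non-transgenic hearts. It had a log2 fold change of -0.29 (SE 0.17; edgeR, adjusted p = 0.606), which was -0.15 without non-transgenic heart A. Mgll (ENSMUSG00000033174; chromosome 6, 88724412 to 88828360, plus strand), which cleaves the last fatty acid, had 122 (A), 141 (B), 164 (C) and 160.1 (E) CPM in transgenic hearts. In non-transgenic hearts it had 174 (A), 130.1 (B), 178 (D) and 181 (E) CPM, with heart B below all but 1 transgenic heart. It had a log2 fold change of -0.17 (SE 0.13; edgeR, adjusted p = 0.733), which was -0.09 without transgenic heart A and -0.27 without non-transgenic heart B. Antisense genes share 918 exon bases with Lipe and 167 with Mgll, and without strand information their reads cannot be told apart.

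Plin5 (ENSMUSG00000011305; chromosome 17, 56111601 to 56117596, minus strand), the droplet coat, had 89.8 (A), 96.4 (B), 107 (C) and 108 (E) CPM in transgenic hearts. Non-transgenic hearts had 154 (A), 143 (B), 82.6 (D) and 123 (E) CPM. In CPM, hearts A, B and E of the non-transgenic group lay above all transgenic hearts and heart D below all of them. As a share of the library's counts, heart D (0.00916%) was above transgenic heart A (0.00887%) and below the other transgenic hearts. The means were 100.4 ± 8.88 and 126 ± 31.6 CPM (transgenic and non-transgenic; SD, n = 4 each), with a log2 fold change of -0.32 (SE 0.17, edgeR adjusted p = 0.573) that was -0.49 without heart D (adjusted p = 0.0772), and -0.21 and -0.25 without non-transgenic heart A or B (0.812 and 0.656). Plin5 and Angptl4 followed each other from heart to heart: their deviations from the own group's mean correlated at r = 0.93 over 8 hearts. These points share the libraries and their scaling. Heart D had the largest deviation in both genes, -0.57 for Plin5 and -1.46 for Angptl4, and r was not computed without it.

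Promoter sequence in RefSeq's table (build GRCm38.p6) was matched for 4 of the 10 genes, Pnpla2, Lipe, Plin5 and Mgll. The 250 bases before the first listed start of Plin5 and before that of Pnpla2 are shown because the droplet coat and the lipase that acts there were followed in the same hearts and PPAR targets are compared next; the 2 genes' deviations correlated at r = 0.75 over 8 hearts. Capitals mark matches, on either strand, to the nuclear receptor half-site AGGTCA, the CCAAT box CCAAT and the GC box GGGCGG.
Plin5 (chr17:56117549-56117798, minus strand): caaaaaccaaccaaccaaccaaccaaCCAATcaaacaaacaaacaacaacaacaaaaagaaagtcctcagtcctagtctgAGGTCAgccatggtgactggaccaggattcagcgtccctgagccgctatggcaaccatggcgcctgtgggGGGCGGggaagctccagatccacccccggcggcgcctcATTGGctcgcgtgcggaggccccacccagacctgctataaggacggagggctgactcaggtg
Pnpla2 (chr7:141454938-141455187, plus strand): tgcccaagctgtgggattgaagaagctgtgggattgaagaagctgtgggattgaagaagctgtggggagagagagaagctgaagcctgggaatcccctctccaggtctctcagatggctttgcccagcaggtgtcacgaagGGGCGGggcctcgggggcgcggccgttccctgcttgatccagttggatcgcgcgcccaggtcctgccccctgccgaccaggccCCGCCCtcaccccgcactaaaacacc
The Plin5 window held 1 half-site, 2 CCAAT boxes and 1 GC box, and the Pnpla2 window 2 GC boxes. Of 32851 promoter windows of 250 bases, 14% held the half-site, 33.8% the CCAAT box and 32.7% the GC box. The ATF4-C/EBP element TGATGNAA, searched likewise, matched in neither window and in 3.5% of all windows. The 250 bases before a second listed start of Plin5, not printed, held 0 half-sites, 0 CCAAT boxes and 2 GC boxes. No printed matches overlap, and a match describes the letters only.

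The PPAR targets as a list, like Angptl4 and Plin5 within it, were lowest among non-transgenic hearts in heart D. Of 25 tested targets, Angptl4 and Plin5 among them, 0 rose, 0 fell and 25 did not pass in edgeR; 11 were lower and 1 higher at an unadjusted p under 0.05 (5.38% and 5.37% of all genes), and DESeq2 called 2 lower (1.20% of all genes). The median log2 fold change was -0.43, beside 0.01 over all genes. Non-transgenic heart D was the lowest of the non-transgenic hearts for 23 of the 25 genes, against 26.2% of all genes. Relative to the mean of all 8 hearts, the median target was at -0.20 (A), -0.27 (B), -0.13 (C) and -0.09 (E) on the log2 scale in transgenic hearts, against 0.38 (A), 0.53 (B), -0.28 (D) and 0.12 (E) in non-transgenic hearts. Mitochondrially encoded genes took 27.0% (A), 24.0% (B), 21.9% (C) and 23.0% (E) of counts in transgenic hearts, against 25.3% (A), 30.1% (B), 18.6% (D) and 21.2% (E) in non-transgenic hearts. The non-transgenic hearts had the same order in this share as in the median target. The transgenic hearts did not: heart A had the highest share (27.0%) and heart E the highest median target (-0.09). The part of the mitochondrial share in the result was not tested.

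Without heart D, 17 of the 25 targets had every remaining non-transgenic heart above every transgenic heart, against 6.89% of all genes. The same held for 8 of the 12 cardiomyocyte markers, so it was not particular to the targets. Heart D was lowest for 23 of the 25 targets and for 26.2% of all genes, so leaving it out favours separation in this list. In the fit without heart D, 4 targets were called lower and 0 higher. Over all genes 0.544% were called lower and 1.04% higher. Every remaining non-transgenic heart was also above every transgenic heart for 6 of the 10 members. Heart D was the lowest non-transgenic heart for 7 of the 10. These places were taken on CPM with TMM factors, highest in heart D (1.11) and lowest in non-transgenic heart B (0.853). As a share of the library's counts, heart D was lowest of its group for Angptl4, Ces1d and Plin5. On that scale heart B was lowest for Pnpla2, Lipe, Dgat1, Dgat2 and Mgll. Heart A was lowest for Lpl and heart E for Gpihbp1. Without heart D, Lpl, Ces1d and Plin5 separated by share, while Gpihbp1, Dgat1 and Dgat2 overlapped. Cyp4b1, a fatty acid hydroxylase gene, had the smallest p of the list. Its highest transgenic heart was at 12.7 CPM and its lowest non-transgenic heart, D, at 13.5 CPM, with a log2 fold change of -0.77 (edgeR adjusted p = 0.0768, and 0.00648 without heart D). The oxidation enzyme genes Acaa2 and Hadha were at -0.65 and -0.44 in log2 fold change (adjusted p by edgeR = 0.173 and 0.294), and 0.0124 and 0.0440 without heart D.

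**Figure D3:**
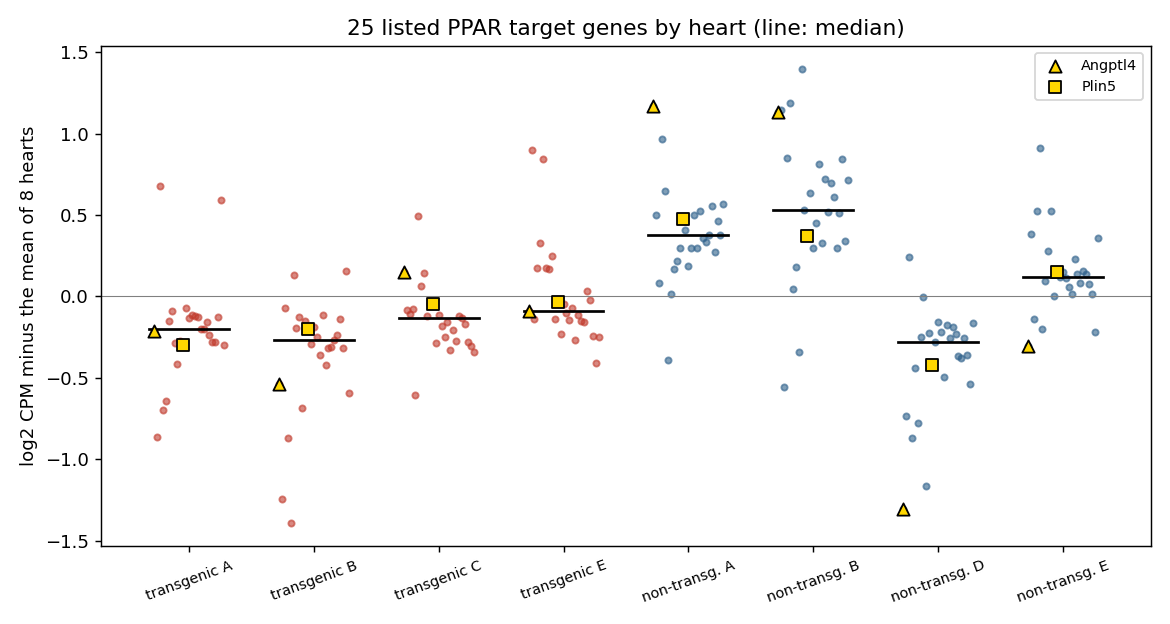
Each dot is 1 of 25 listed PPAR targets, as log2 CPM minus its mean over the 8 hearts (vertical axis), by heart, transgenic hearts at left; black lines are medians, and Angptl4 and Plin5 have their own symbols. Non-transgenic hearts A and B have the highest medians, 0.38 and 0.53, and non-transgenic heart D, at -0.28, sits with the transgenic hearts.

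On the synthesis side, Dgat1 (ENSMUSG00000022555; chromosome 15, 76502015 to 76511953, minus strand) had 14.4 (A), 16.4 (B), 16.7 (C) and 16.6 (E) CPM in transgenic hearts. Non-transgenic hearts had 18.4 (A), 17.6 (B), 15.8 (D) and 17.4 (E) CPM, and in CPM the groups overlapped through heart D. As a share of the library's counts, non-transgenic hearts A (0.00168%), B (0.00150%) and D (0.00175%) all lay among the transgenic hearts. The fit gave a log2 fold change of -0.11 (SE 0.09, edgeR adjusted p = 0.764). It was -0.06 without transgenic heart A and -0.16 without heart D (edgeR adjusted p = 0.477). Dgat2 (ENSMUSG00000030747; chromosome 7, 99153658 to 99182719, minus strand), an enzyme of the same reaction from another protein family, had 128 (A), 147 (B), 153 (C) and 142 (E) CPM in transgenic hearts. Non-transgenic hearts had 219 (A), 164 (B), 152 (D) and 166 (E) CPM. In CPM, heart D, at 152, was below the highest transgenic heart, at 153, and the others were above all of them. This depended on the scaling. As a share of the library's counts, heart D (0.0169%) was above all transgenic hearts and non-transgenic heart B (0.0140%) lay among them. The log2 fold change was -0.30 (SE 0.12), which did not pass (edgeR adjusted p = 0.417). It was -0.18 without non-transgenic heart A and -0.37 without heart D (edgeR adjusted p = 0.209). The count ratio of Dgat2 to Dgat1 was 8.59 to 9.16 in transgenic and 9.32 to 12 in non-transgenic hearts, without overlap.

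Of 19 genes of triglyceride synthesis, Dgat1 and Dgat2 among them, 16 were tested, with 0 called in edgeR or DESeq2. At an unadjusted p under 0.05, 1 was higher and 2, Dgat2 among them, were lower (5.37% and 5.38% of all genes). The median log2 fold change was -0.04, and 0.04 over the 14 tested genes that are not members. Gpat3, an acyltransferase of the first step, had the smallest p, with a log2 fold change of 0.35 (edgeR adjusted p = 0.363), followed by Lclat1 (-0.30, adjusted p = 0.390). Of 27 lipid droplet and hydrolase genes, members included, 23 were tested. Ces1d fell, 0 rose and 22 did not pass, beside 0.242% of all genes called lower and 1.01% higher. The median was -0.16, and -0.15 over the 18 that are not members. Plin3, another perilipin gene, had 112, 111, 110.2 and 104 CPM in transgenic hearts against 198, 176, 128 and 149 CPM in the non-transgenic hearts (A, B, D, E). It missed the threshold (log2 fold change -0.58, SE 0.13, edgeR adjusted p = 0.0733), and passed without heart D (0.0145), with library sizes alone as scaling (0.0363) and in DESeq2 (0.00136). The droplet-forming gene Fitm1 had a log2 fold change of -0.37 (edgeR adjusted p = 0.153; DESeq2 0.0218) and the seipin gene Bscl2 0.29 (edgeR adjusted p = 0.381). The PNPLA2 partners Abhd5, its activator, and G0s2, its inhibitor, had values of 0.17 and -0.15 (edgeR adjusted p = 0.598 and 0.796).

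A list of genes for uptake, binding and activation of fatty acids was lower in its median, at -0.29 over 19 tested of 20. It also holds the acyl-CoA thioesterase genes Acot1, Acot2, Acot7 and Acot13, which do not activate fatty acids. In edgeR 0 were called, with 7 lower and 1 higher at an unadjusted p under 0.05 (5.38% and 5.37% of all genes). DESeq2 called 3 lower (1.20% of all genes). Acot7, a cytosolic acyl-CoA thioesterase gene, was at 53.1 ± 3.34 CPM (transgenic) and 71.6 ± 6.24 CPM (non-transgenic; SD, n = 4 per group), without overlap. Its log2 fold change of -0.43 (SE 0.09) just missed the threshold (edgeR adjusted p = 0.0534), and passed without heart D (0.0377) and in DESeq2 (0.000481). Acsl1, the main acyl-CoA synthetase gene of heart, and the fatty acid binding protein gene Fabp4, expressed in capillary endothelium and adipocytes, were at -0.40 and -0.53 in log2 fold change (adjusted p by edgeR = 0.169 and 0.239), both without overlap. Without heart D the adjusted p was 0.0442 for Acsl1 and 0.0877 for Fabp4.

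**Figure D4:**
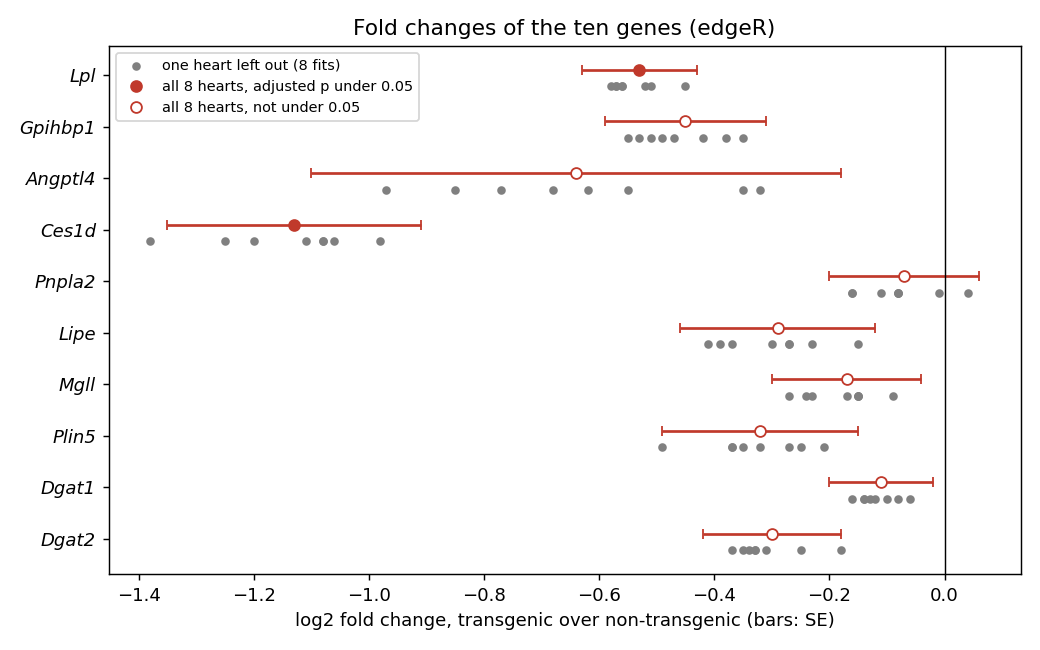
Log2 fold change of each member, transgenic over non-transgenic (horizontal axis), with its SE from the edgeR fit of all 8 hearts (red; filled where the adjusted p was under 0.05) and the values with each heart left out in turn (grey). Lpl stays between -0.58 and -0.45, and Angptl4 has the widest spread.

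Per kilobase of exon, the order of levels was nearly the same in both groups. In transgenic hearts it ran from Lpl at 337 ± 17.3 CPM per kb through Pnpla2 (83.7 ± 9.92), Plin5 (48.1 ± 4.26), Dgat2 (46.2 ± 3.44), Mgll (28.9 ± 3.83), Ces1d (23.9 ± 7.62) and Gpihbp1 (16.8 ± 2.59) to Dgat1, Lipe and Angptl4 at 5.24, 3.52 and 1.22 (SD, n = 4). In non-transgenic hearts it ran from Lpl at 488 ± 56.9 through Pnpla2 (88.1 ± 14.4), Plin5 (60.2 ± 15.1), Dgat2 (57.0 ± 9.68), Ces1d (52.4 ± 12), Mgll (32.6 ± 4.70) and Gpihbp1 (22.9 ± 3.29) to Dgat1, Lipe and Angptl4 at 5.65, 4.31 and 1.92. The neighbours Plin5 and Dgat2, and Mgll and Ces1d, had overlapping ranges in transgenic hearts. In non-transgenic hearts the ranges of Pnpla2, Plin5, Dgat2 and Ces1d overlapped each with the next, as did Mgll with Gpihbp1 and Dgat1 with Lipe. The change of place was between Ces1d and Mgll: Ces1d was above Mgll in all 4 non-transgenic hearts and below it in 3 of 4 transgenic hearts.

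From heart to heart within groups, the deviations of 10 of the 45 pairs of members had an r below 0 (22.2%), beside 50.3% of all pairs of the 13226 genes; 5 pairs reached 0.8 (11.1%), beside 6.06%. Over the 45 pairs, the deviations from the own group's mean had a median r of 0.46 (range -0.58 to 0.93, n = 8 hearts, which share library and scaling). The highest after Angptl4 with Plin5 were Pnpla2 with Lipe (0.87), with Dgat2 (0.83) and with Dgat1 (0.81), and Plin5 with Dgat1 (0.83). Lpl followed Gpihbp1 (0.66) and not Ces1d (-0.05). Mgll had the lowest values, at -0.58 with Ces1d and -0.45 with Lpl.

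Outside the lists, the 5 genes of 8554 whose levels across the 8 hearts were most like those of Lpl were Hrc, Atxn7l1, Psme1, Tango2 and Papss2 (Pearson r of log2 CPM 0.953 to 0.983, Spearman rho 0.79 to 0.98). Hrc codes for a calcium-binding protein of the sarcoplasmic reticulum and was itself called lower (log2 fold change -0.48, edgeR adjusted p = 0.0387). Those most like Ces1d were Pdp2, Sun1, P3h4, Ldhd and Echdc3 (r 0.974 to 0.985, rho 0.90 to 1.0). Pdp2 codes for a phosphatase that activates pyruvate dehydrogenase, and P3h4 was called lower (log2 fold change -0.62, edgeR adjusted p = 0.0353). These likenesses are given as a description.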

How the data were processed

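Whole-heart total RNA (Trizol, TruSeq libraries, per the labels' protocols) was sequenced from 4 FASTKD1 transgenic and 4 non-transgenic mice. The authors deposited whole-number read counts per Ensembl gene, 1 table per heart; cutadapt 1.15, TopHat2 and the builds GRCm38 and mm10 are named in the submitters' processing notes, while the read counter, annotation release and strand setting are not given in the sources used here. Symbols, GRCm38 coordinates and exon lengths came from GENCODE; 7 identifiers had no entry. Genes passing filterByExpr (13226 of 13227) were scaled by TMM and tested with edgeR 4.0.16 (quasi-likelihood F test, Benjamini-Hochberg adjustment over all genes tested, threshold 0.05) in R 4.3.3. Adjusted p-values in the text are from this fit unless DESeq2 1.42.0 or limma 3.58.1 (voom) is named; SE is the log2 fold change over the square root of F. Single sums were tested by two-sided exact permutation over 70 arrangements. Log2 CPM used a prior count of 2. The listed genes all had a second-highest CPM of at least 1.003, so the deposited tables look filtered on low values. Named genes were the members, every called gene of a list or otherwise up to 3 with the smallest p, and the 5 genes most like Lpl and Ces1d in level; Abhd5, G0s2, Myh6 and Adipoq were chosen after their values were seen. The members and lists were chosen with earlier results of these data known. The fit was tested on simulated data. Alternatives were other scalings, filters and tools, a replicate block and leaving out hearts.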

Additional observations from a re-analysis of the deposited data

Results flagged for a closer look

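In 4 of the 20 groups of hearts examined, 1 heart lay far from the other hearts of its group, by a test on the gap that flags about 1 in 20 groups by chance. Lpl in non-transgenic heart B, at 5999 CPM, was far above the other non-transgenic hearts. This held for CPM scaled with TMM factors, and heart B had the lowest factor of all hearts, 0.853. As a share of the library's counts, Lpl in heart B was 0.512%, above hearts A and E and below heart D, at 0.537%. Ces1d in transgenic heart A, at 83.6 CPM, was far above the other transgenic hearts. Dgat1 in transgenic heart A, at 14.4 CPM, was far below the other transgenic hearts. As a share of counts it was 0.00142%, against 0.00167% (B), 0.00177% (C) and 0.00173% (E). Mgll in non-transgenic heart B, at 130.1 CPM, was far below the other non-transgenic hearts. As a share of counts it was 0.0111%, against 0.0160% (A), 0.0197% (D) and 0.0187% (E). The gap test was run on CPM with TMM factors and not on these shares, where gaps can be smaller.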

How the results depend on the processing

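The members' directions held under 18 alternatives, except that Pnpla2 turned to 0.01 with library sizes only and to 0.04 without non-transgenic heart A (-0.16 to 0.04 with 1 heart left out). Lpl ranged from -0.58 to -0.45 and was called in 10 of 18 alternatives; Ces1d ranged from -1.49 to -0.98 and was called in 12 of 18. Members called lower numbered 2 in the fit of all hearts, 0 to 2 with 1 heart left out, 1 without hearts non-transgenic D and transgenic A, and 1 with the replicate block; members called higher numbered 0 throughout. Over all genes, 133 higher and 32 lower calls became 249 and 159 with DESeq2. With 1 heart left out they were 103 to 168 higher and 9 to 72 lower. Without that pair of hearts there were 106 lower calls, and 148 of the 165 original calls were shared. With title letters as replicate block there were 21 lower calls, with adjusted p of 0.196 for Lpl and 0.00790 for Ces1d in edgeR. The letters were not taken to pair hearts in the main fit because the labels do not say that they do. Same-letter deviations correlated at 0.30 (A), -0.08 (B) and 0.36 (E), and those of different letters at -0.44 to 0.45. With such overlap these values cannot tell whether the letters pair hearts. The cause of the differences between fits was not tested, beyond fewer hearts in some fits. Angptl4 was not tested at 5 CPM or more in 4 hearts. Among the members, counts were lowest for Angptl4, from 107 (non-transgenic heart D) to 478 (non-transgenic heart A). The part of counting error in the members' spread was not computed, and 4 hearts per group limit the precision.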
